A study of Homo sapiens with 4 samples.

Results

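The cells described here are A375 melanoma cells of the RV library that carried many transcripts of *CDKN1A*, the gene of the cell cycle inhibitor p21. They were chosen from this library alone. A UMI (unique molecular identifier) stands for 1 captured transcript, and a barcode was taken as a cell if it had 500 genes or more and if mitochondrial transcripts made up no more than 20% of its UMIs. Cells with at least 6 *CDKN1A* UMIs are called CDKN1A-high, and cells with 0 are called CDKN1A-zero. Of 4327 RV cells that passed, 633 (14.6%) were CDKN1A-high, 1806 (41.7%) were CDKN1A-zero and 1888 had 1 to 5 UMIs. The 4 libraries of the series held 28640 cells that passed.

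A375 is an established human melanoma line with the *BRAF* V600E mutation. The RV culture was made resistant to the BRAF inhibitor vemurafenib by keeping it for 10 to 14 days on the drug at a fraction of its IC50. S cells were untreated. RVC cells received vemurafenib with the MEK inhibitor cobimetinib, and RVT cells received vemurafenib with the MEK inhibitor trametinib. Both were made resistant to their combination in the same way. Drugs were taken away 24 h before capture, so that the RV cells were measured after a drug-free day. For each condition 10000 cells were loaded for 1 droplet library, without a replicate, so that no test between conditions or cell groups was made.

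The protein p53 is a transcription factor that is held low by MDM2, a ubiquitin ligase which p53 itself induces. When MDM2 lets go, p53 activates genes for cell cycle arrest, DNA repair, apoptosis and metabolism. Its best known target is *CDKN1A*, whose product p21 blocks cyclin-dependent kinases. This keeps the RB protein and its relatives active, which silences E2F and DREAM target genes of the S and M phases.

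*CDKN1A* (chromosome 6, 36676460 to 36687339, plus strand, GRCh38) was read at 246 CPM (counts per 1000000 UMIs) in all RV cells, at 101 in S, at 133 in RVC and at 114 in RVT. The most UMIs in 1 cell were 133 in RV, 44 in S, 38 in RVC and 16 in RVT. The share of CDKN1A-high cells was 14.6% (exact 95% binomial interval 13.6 to 15.7) in RV, 3.93% in S, 2.13% in RVC and 0.225% in RVT. The median depth of the libraries had the same order, with 11648, 8911, 4099 and 2951 UMIs per cell. After thinning every cell to 3000 UMIs, a count of at least 3 *CDKN1A* UMIs was found in 7.88% of RV, 2.18% of S, 3.56% of RVC and 2.23% of RVT cells. Thinning left out 41 S, 2527 RVC and 4787 RVT cells that were shallower. All intervals given here cover counting error only.

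**Figure D1:**
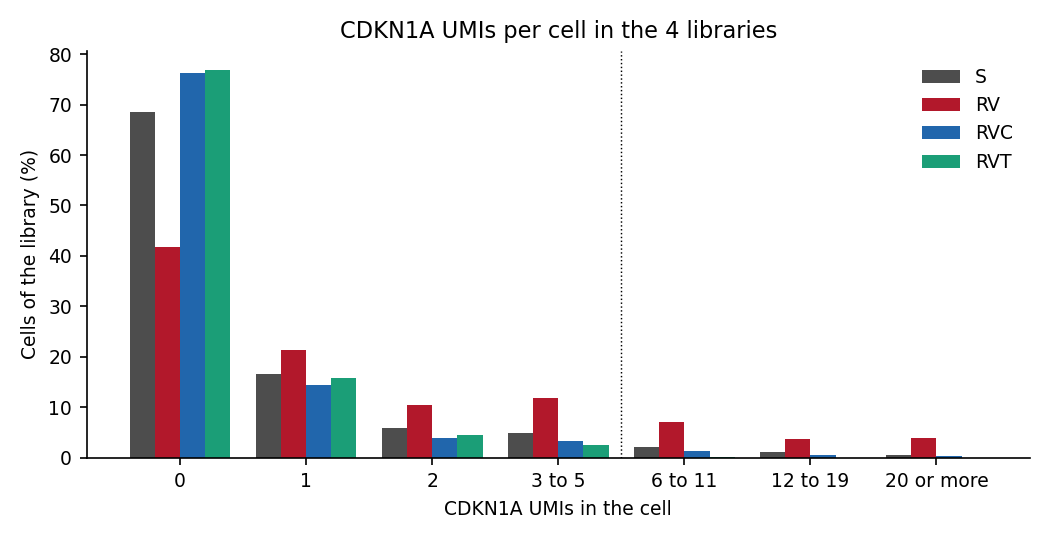
Share of the cells of each library (%) by the number of *CDKN1A* UMIs in the cell, unthinned, with 1 bar per library. Right of the dotted line lie the CDKN1A-high cells, 14.6% of RV and at most 3.93% of the other libraries.

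CDKN1A-high cells were deeper than CDKN1A-zero cells, and the rule takes no account of depth. Their median was 15926 UMIs (quartiles 12162 and 21358) against 10578 (8494 and 13184). Genes were therefore compared as CPM over the summed cells of each group. Mitochondrial shares were alike, with medians of 3.06% and 3.05%, while ribosomal protein genes took 45.8% and 40.9%. Summed markers of other cell types were at 1.00 and 1.35 CPM, none of 11 markers reached 10 CPM, and the leukocyte gene *PTPRC* had 0 UMIs. Of the RV barcodes 131 also occurred in another library, 21 of them in CDKN1A-high cells. Without these barcodes 289 genes were at least 1.5-fold higher and 711 lower, next to the 292 and 719 given below for all cells. The line offers no cell type that lacks *CDKN1A*, so that free RNA in the droplets could not be measured on such cells.

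A gene was counted where the mean of its CPM in both groups reached 10. Of 5812 such genes 292 (5.02%) were at least 1.5-fold higher in CDKN1A-high cells and 719 (12.4%) were at least 1.5-fold lower. The median log2 ratio of all these genes was -0.13. This split depended on the scale. With totals that left out ribosomal and mitochondrial genes, 756 genes were higher and 614 lower, and the median was 0.02. The choice of cells used *CDKN1A* of these same cells, so that all values in RV are a description. The cells were picked with results of these data known.

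Both marker genes that were given for these cells beside *CDKN1A* were high. *MDM2* (chromosome 12, 68808176 to 68850686, plus strand) was at 108.7 CPM in CDKN1A-high and at 12.0 in CDKN1A-zero cells, a ratio of 9.05 (95% 7.87 to 10.4). *FDXR* (chromosome 17, 74862497 to 74873031, minus strand), which encodes the mitochondrial ferredoxin reductase, was at 137 against 19.6, a ratio of 7.02 (6.28 to 7.86). In cells thinned to 5000 UMIs, at least 1 *MDM2* UMI was found in 39.5% of 630 CDKN1A-high and 5.61% of 1730 CDKN1A-zero cells. The unthinned shares were 68.4% and 12.3%. *FDXR* was found in 45.4% and 8.73% of thinned cells, and in 75.8% and 18.8% of unthinned ones. The thinning left out 3 CDKN1A-high and 76 CDKN1A-zero cells.

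Of 54 p53 target genes listed beside *CDKN1A*, 34 passed the minimum. Of these 28 were at least 1.5-fold higher in CDKN1A-high cells and 0 were lower, where 5.02% of all genes were higher and 12.4% lower. Their median log2 ratio was 1.31 against -0.13 for all genes, and the whole list summed to 4725 against 1802 CPM, a ratio of 2.62. *MDM4*, which encodes another inhibitor of p53 and was looked up after the list had been read, had a ratio of 1.00.

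Among the groups of p53 targets, genes of cell cycle arrest and DNA repair had the highest summed ratio in RV, 3.51, and all 8 that passed were higher. They were also highest in RVC, at 4.13. In S they were at 2.77, below genes that feed back on p53 at 3.27 and metabolic, redox and secreted targets at 3.76. *BTG2*, an antiproliferative gene of the TOB family, was nearly missing from CDKN1A-zero cells, with 34 UMIs in all of them and 380 in the CDKN1A-high cells. This gave 1.70 and 34.7 CPM and a ratio of 20.4 (14.3 to 29.9). *DDB2*, which recognises UV damage, was at 180.2 against 37.4, a ratio of 4.81. *GADD45A*, a stress sensor that binds PCNA and CDK1, was at 361 against 86.1, a ratio of 4.19. *RRM2B*, the p53-driven ribonucleotide reductase subunit, had a ratio of 4.63, *ZMAT3*, an RNA-binding splicing regulator, 4.11 and the repair gene *XPC* 2.93. The polo-like kinase genes *PLK3* and *PLK2* were at 2.57 and 1.58, the latter at 1.49 without cells rich in *ATF3* (47 CDKN1A-high and 4 CDKN1A-zero cells, described further on). Without the same cells *BTG2* was at 12.7 and *GADD45A* at 1.79, and *BTG2* was at 32.2 when CDKN1A-zero cells were weighted to the depth of the CDKN1A-high cells. *GADD45A* made up 361 of the 824 CPM of the group in CDKN1A-high cells, and 62.0% of its UMIs lay in the cells rich in *ATF3*. The summed ratio of the group was not computed without those cells, so that its rank is given for all cells only.

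Among genes of apoptosis 9 of 12 were higher, with a summed ratio of 2.01. The death receptor gene *FAS* was at 28.7 against 5.16 CPM, a ratio of 5.56. *AEN*, an apoptosis-enhancing nuclease, was at 70.8 against 14.4, a ratio of 4.91 that was 2.48 without the cells rich in *ATF3*. *PHLDA3*, which restrains AKT, was at 127 against 34.8, a ratio of 3.67. *BBC3*, which encodes the BH3-only protein PUMA, had a ratio of 3.47 and *BAX*, the pore-forming effector, 2.23 from 144 to 322 CPM. *PMAIP1*, which encodes the BH3-only protein NOXA, differed from these. It was at 76.1 against 92.3, a ratio of 0.82 that was 0.61, past 1.5-fold lower, without the cells rich in *ATF3*. The death receptor gene *TNFRSF10A* and *PERP* were within 1.5-fold at 1.36 and 1.22.

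Of the metabolic, redox and secreted targets 6 of 7 were higher, with a summed ratio of 2.92. *GDF15*, a secreted stress cytokine, was at 334 against 52.8, a ratio of 6.34 (5.92 to 6.80) that was 4.11 when cells were chosen after thinning. The small ribosomal-like gene *RPS27L* was the most abundant target, at 1638 against 622, a ratio of 2.64. *TIGAR*, which lowers glycolysis, had a ratio of 2.30, and *SESN2*, an inhibitor of mTORC1 signalling that ATF4 also drives, stayed at 1.06. Of the genes that feed back on p53 only *MDM2* and *CCNG1* passed, the latter at 1.40. Of the other direct targets 4 of 5 were higher, with a summed ratio of 1.91, led by *CYFIP2*, which binds the WAVE actin complex, at 3.65. Targets too rare for the count included *TRIM22*, with 50 UMIs in CDKN1A-high and 4 in CDKN1A-zero cells, *TP53INP1* with 53 and 10, *SESN1* with 68 and 22, and *PPM1D*, the WIP1 phosphatase that switches p53 off, with 130 and 66.

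**Figure D2:**
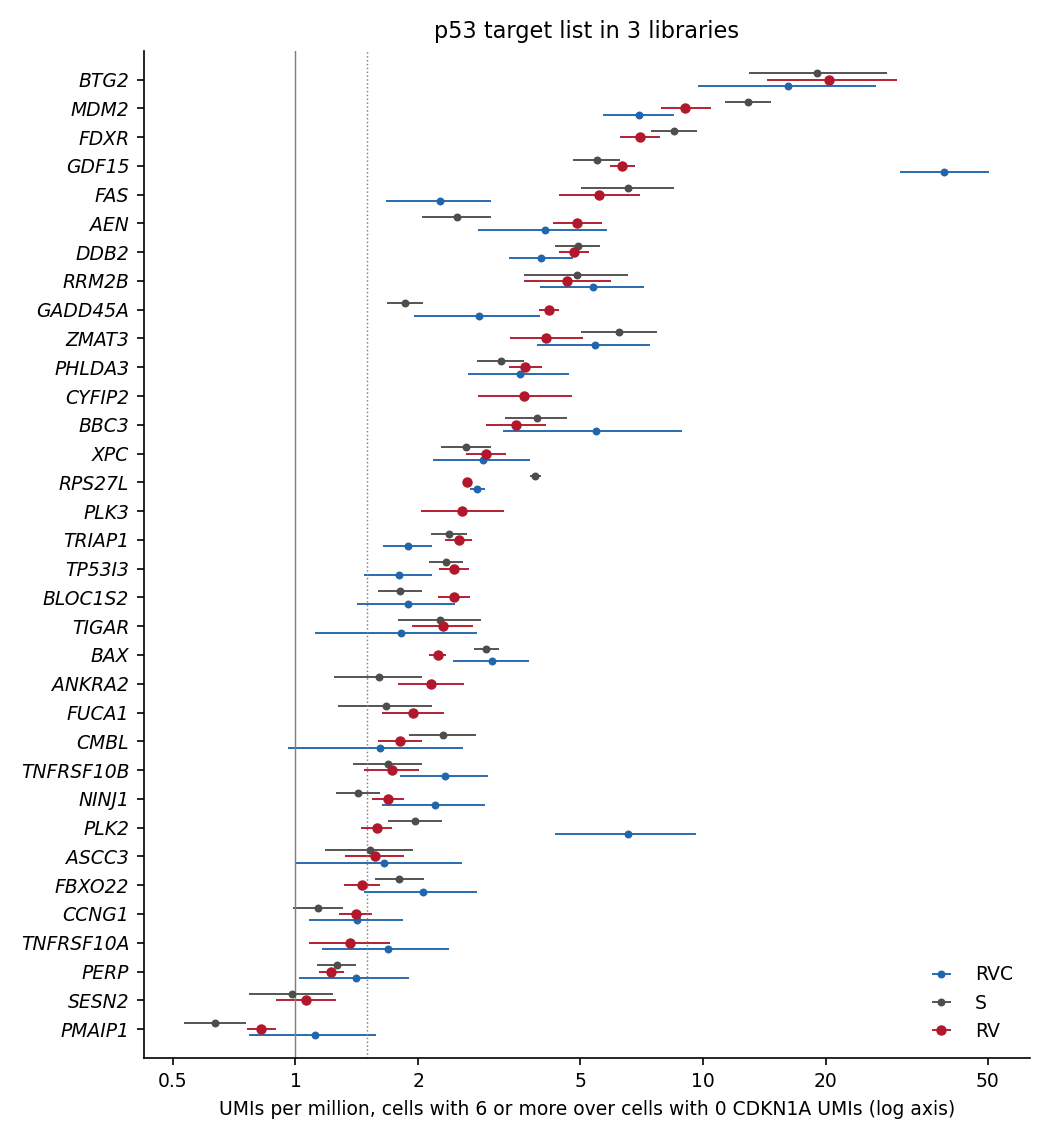
Ratio of CPM in CDKN1A-high over CDKN1A-zero cells (log axis) for the 34 p53 target genes that passed the minimum in RV, with S and RVC where the gene passed there. Points are ratios of sums, bars exact 95% intervals for counting error, the solid line marks 1 and the dotted line 1.5. *BTG2*, *MDM2*, *FDXR* and *GDF15* lead in RV, and *PMAIP1* is the only gene left of 1 there.

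The sequences around the starts of these genes were read from RefSeq windows (GRCh38.p14) of 250 bases before and 50 after each annotated start. Of the 54 genes 41 had a window. A p53 element was sought as a gapless pair of the known 10-base half-sites in which C and G of both cores were kept and at most 3 other bases departed from the consensus, which reads alike on both strands. It was found in 11 of 41 p53 target genes (26.8%) and in 1.37% of all 27305 genes. It was in 0 of 33 G1/S, 0 of 45 G2/M and 0 of 26 inflammatory genes with a window. Of the 11 targets with an element 7 were counted as higher in CDKN1A-high cells. The elements of 6 of these, all but *GDF15*, of *PMAIP1*, the counted target with a ratio under 1, and of *ACTA2*, a gene outside the list that is described next, are shown with the element in capitals, on the strand of the gene.
MDM2: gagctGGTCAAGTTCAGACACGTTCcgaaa
FDXR: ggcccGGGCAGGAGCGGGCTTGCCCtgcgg
DDB2: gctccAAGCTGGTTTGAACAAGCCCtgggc
AEN: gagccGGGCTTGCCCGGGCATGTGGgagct
RPS27L: aggagGGCCTAGAGCAGACAAGCCCgcccc
PMAIP1: gtcggGAGCGTGTCCGGGCAGGTCGcgctc
FAS: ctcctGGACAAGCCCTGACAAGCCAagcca
ACTA2: tggctTGGCTTGTCAGGGCTTGTCCaggag
The coordinates are those of the 30 bases printed. They are chr12:68808918-68808947 for *MDM2*, whose element lies 94 to 75 bases before an internal start, chr17:74872991-74873020 for *FDXR*, chr11:47214964-47214993 for *DDB2*, whose element runs over the start, chr15:88621301-88621330 for *AEN*, chr15:63157522-63157551 for *RPS27L* and chr18:59899806-59899835 for *PMAIP1*. In *DDB2* 1 base departed from the consensus, in *MDM2*, *AEN* and *FAS* 2 and in *FDXR*, *RPS27L* and *PMAIP1* 3. The windows of *FAS* and *ACTA2* face each other on chromosome 10, and both lines show the same bases, chr10:88991304-88991333, read on the plus strand for *FAS* and on the minus strand for *ACTA2*. A match is a description of letters, not of binding. *BTG2* had no such element in its windows, which do not hold distant sites, and *GADD45A* had no window. *CDKN1A* was not in the list searched, and no statement is made on its windows.

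Several of the largest ratios belonged to genes outside the list. *SUGCT* (chromosome 7, 40134977 to 40860763, plus strand), which encodes a mitochondrial glutarate CoA-transferase, was at 90.2 against 4.56 CPM, a ratio of 19.8. *ACTA2*, the smooth muscle actin gene, was at 79.1 against 4.80, a ratio of 16.5 (13.3 to 20.6). It overlaps *FAS* on the opposite strand, and whether the counting used the strand is not given in the sources used here. *GAS6-AS1* (chromosome 13, 113815630 to 113845744, plus strand), an antisense RNA of *GAS6* that also overlaps *TMEM255B* on its own strand, was at 62.5 against 4.10, a ratio of 15.2. Its reads may be shared with these genes, since the use of strand is not given. *ABCB9*, a lysosomal peptide transporter gene, had a ratio of 7.69. Of the 633 CDKN1A-high cells 365 had a UMI of *SUGCT*, 333 of *ACTA2* and 330 of *GAS6-AS1*. In cells of low cell cycle UMIs, defined further on, the ratios were smaller, at 11.7 for *SUGCT*, 6.68 for *ACTA2*, 7.10 for *GAS6-AS1* and 4.55 for *ABCB9*.

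The nuclear RNA *NEAT1*, the scaffold of paraspeckles, was the most abundant of the 10 genes with the largest ratios among genes at 50 CPM or more in the higher group. It was at 1826 CPM in CDKN1A-high and at 317 in CDKN1A-zero cells, a ratio of 5.77, and 620 of 633 CDKN1A-high cells had at least 1 UMI. Its neighbour *MALAT1*, another nuclear RNA, was at 9127 against 8773, a ratio of 1.04. The linker histone gene *H1-2* (ratio 3.05) and the histone gene *H2AC6* (5.06) were higher too, while the variant histone genes *H2AZ1* (0.40) and *H2AX* (0.38, and 0.60 in cells of low cell cycle UMIs) were lower.

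Within RV the p53 list was higher in each further class of *CDKN1A* UMIs. It summed to 1802 CPM at 0 UMIs, 2014 at 1, 2360 at 2, 2763 at 3 to 5, 3369 at 6 to 11, 4664 at 12 to 19 and 6949 at 20 or more. Just outside the limit, 115 cells with 5 UMIs were at 2940, and just inside it 79 cells with 6 UMIs were at 3210. *MDM2* was at 12.0 CPM in the lowest and at 158 in the highest class, and *FDXR* at 19.6 and 228.

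**Figure D3:**
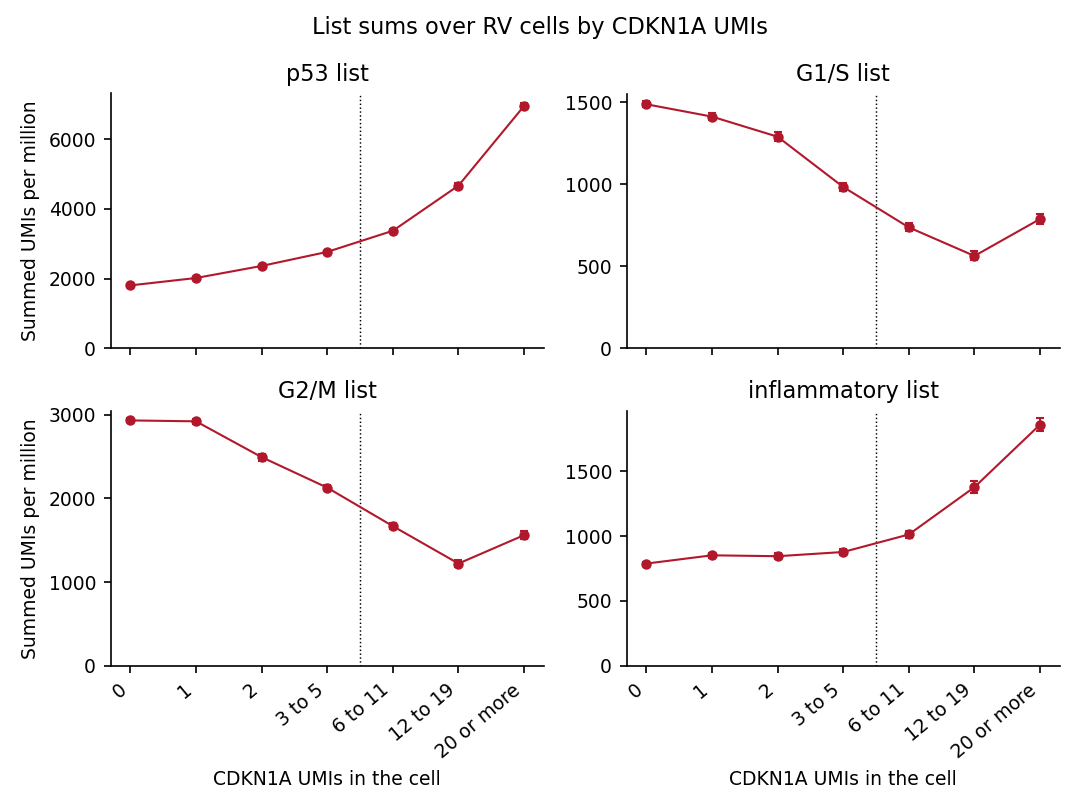
Summed CPM of 4 gene lists over RV cells by the *CDKN1A* UMIs of the cell, with exact 95% Poisson intervals for counting error. The p53 list is at 1802 in the first and at 6949 in the last class. The G1/S and G2/M lists are lowest at 12 to 19 UMIs, with 563 and 1221.

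Genes of DNA replication and division were lower in CDKN1A-high cells. Of 43 G1/S genes 27 passed, 24 were at least 1.5-fold lower and 0 were higher, where 12.4% of all genes were lower. Their sum was 708 against 1489 CPM, a log2 ratio of -1.07. *GINS2*, a subunit of the replicative helicase complex, was at 14.9 against 64.0, a ratio of 0.23. *CLSPN*, the replication checkpoint mediator claspin, had a ratio of 0.25 (0.13 with cells chosen after thinning), the primase gene *PRIM1* 0.33, *UHRF1*, which carries DNA methylation through replication, 0.29 (0.19 both after thinning and in cells of low cell cycle UMIs) and the helicase gene *MCM5* 0.34. *TYMS*, the thymidylate synthase gene, was at 71.1 against 74.9 and *PCNA*, which p53 also drives, at 39.2 against 58.3, ratios of 0.95 and 0.67.

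Of 54 G2/M genes 35 passed, 28 were lower and 0 higher, and the sum was 1524 against 2932, a log2 ratio of -0.94. The chromatin protein gene *HMGB2* was at 44.4 against 154.6, a ratio of 0.29. The centromeric histone gene *CENPA* had a ratio of 0.35, *MKI67*, the Ki-67 antigen, 0.39 and *TOP2A*, the topoisomerase that untangles chromatids, 0.41. The mitotic kinase gene *PLK1*, which was in neither list, was at 14.2 against 52.0, a ratio of 0.27. With cells chosen after thinning *PLK1* was at 0.13 and *CENPA* at 0.19. In cells of low cell cycle UMIs *PLK1* was at 0.51, *HMGB2* at 0.52 and the division gene *CDCA3*, at 0.34 in all cells, at 1.07. These cells were chosen by the summed UMIs of the G1/S and G2/M lists, which hold *HMGB2* and *CDCA3*, so that both values are bound by the choice. In thinned cells *TOP2A* was found in 10.6% of CDKN1A-high and 24.0% of CDKN1A-zero cells, and *MKI67* in 6.98% and 16.2%. The unthinned shares were 21.5% and 37.5% for *TOP2A* and 15.8% and 28.5% for *MKI67*.

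The starts of both lists held different words. TTTGAA on either strand, the core of the CHR element through which DREAM acts, was in 33 of 45 G2/M genes with a window (73.3%), in 3 of 33 G1/S genes (9.09%), in 5 of 41 p53 targets (12.2%) and in 18.2% of all genes. TTTGGCGC or TTTCCCGC on either strand, both E2F sites that do not overlap the CHR word, were in 16 of 33 G1/S genes (48.5%), in 2 of 45 G2/M genes (4.44%), in 5 of 41 p53 targets (12.2%) and in 2.75% of all genes. Of these 5 targets 4 were higher in CDKN1A-high cells. Examples from genes that were lower in CDKN1A-high cells follow, with the word in capitals on the strand of the gene.
GINS2, E2F: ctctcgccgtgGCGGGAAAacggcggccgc
UHRF1, E2F: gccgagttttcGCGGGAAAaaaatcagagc
CCNB2, CHR: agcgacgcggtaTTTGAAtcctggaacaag
TOP2A, CHR: cgagtggtgcctTTTGAAgcctctctagtc
These lie at chr16:85688967-85688996, chr19:4909476-4909505, chr15:59105105-59105134 and chr17:40418073-40418102. They are shown because the lists that hold them had the most members lower.

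Of 20 genes that set the G1 phase 8 passed, 1 was higher and 2 were lower, and these small counts, beside 5.02% and 12.4% of all genes, are no result about the list. The kinase genes *CDK4* and *CDK2* had ratios of 0.64 and 0.62, *CCND1*, which encodes cyclin D1, was at 307 against 357 and *CDK6* at 32.9 against 32.4. Among the other inhibitors *CDKN2A*, which encodes p16 and ARF, was at 13.5 against 8.46, a ratio of 1.60 that was 0.95 when cells were chosen after thinning and 1.19 without the cells rich in *ATF3*. In cells of low cell cycle UMIs *CDK2* was at 0.89 and *CDK4* at 0.67, so that neither was past 1.5-fold. Both were also within 1.5-fold at 4 or more *CDKN1A* UMIs (log2 ratios -0.55 for *CDK2* and -0.56 for *CDK4*) and with totals free of ribosomal and mitochondrial genes (-0.57 and -0.53), and *CDK2* with cells chosen after thinning (-0.28). The p27 gene *CDKN1B* had 83 and 137 UMIs and was too rare for the count. Cyclin E2, an E2F target, was rare and low, with 6 UMIs of *CCNE2* in CDKN1A-high and 111 in CDKN1A-zero cells.

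Single cells were spread widely. The p53 list had a median of 3911 CPM per CDKN1A-high cell (quartiles 2984 and 5132) and of 1708 per CDKN1A-zero cell (1297 and 2192). Of the 633 CDKN1A-high cells 529 (83.6%) lay above the 90th percentile of the CDKN1A-zero cells, and 6 lay below their median. Cell cycle transcripts varied among the CDKN1A-high cells. Their G1/S and G2/M UMIs summed to a median of 1011 CPM against 3769, yet 141 of them (22.3%, 19.1 to 25.7) lay above the median of all RV cells, where 59.9% of CDKN1A-zero cells did. A restriction to 492 CDKN1A-high and 723 CDKN1A-zero cells below that median left 24 of 33 p53 targets higher, where 174 of all 5572 genes (3.12%) were higher. The median log2 ratio was 0.98 for the targets and -0.16 for all genes. *MDM2* and *FDXR* then had ratios of 7.83 and 6.06.

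**Figure D4:**
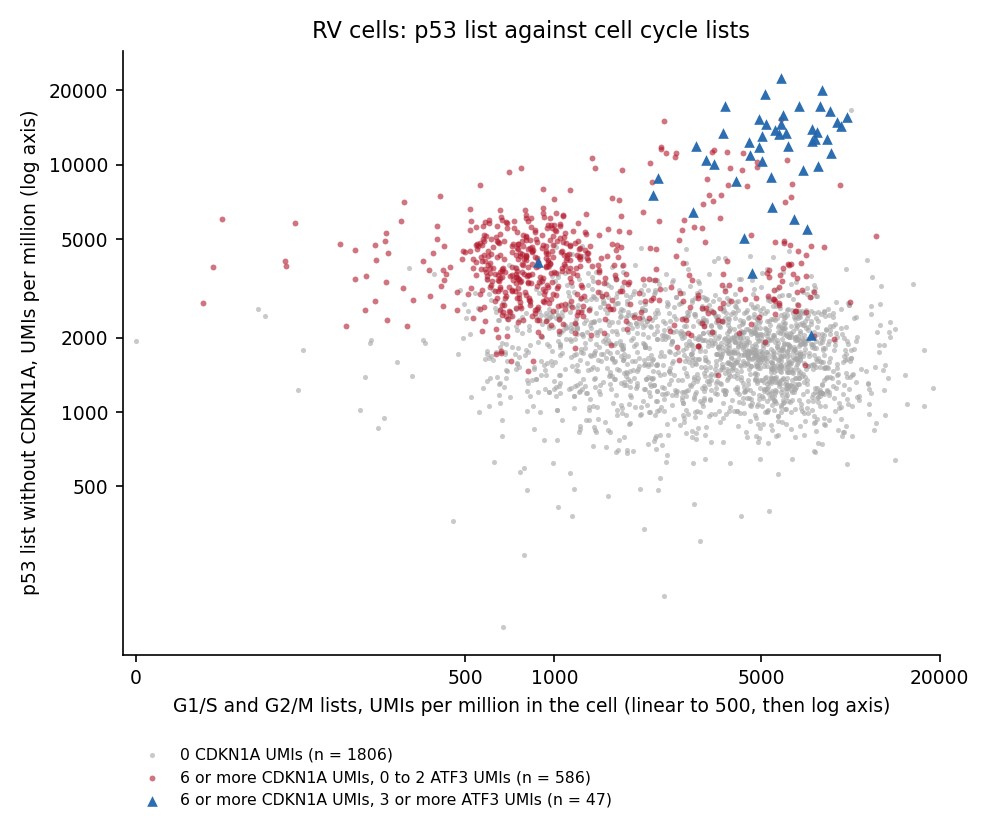
CPM per RV cell for the p53 list without *CDKN1A* (log axis) against the G1/S and G2/M lists (linear up to 500, then log axis), with 1 point per cell. Most CDKN1A-high cells (red) are at upper left, and the 47 cells with at least 3 *ATF3* UMIs (blue triangles) are mostly at upper right.

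The UMIs of some genes were spread over most CDKN1A-high cells and those of others lay largely in few, with a range between. For each gene the 64 cells (10%) with the most of its UMIs were taken. They held 27.6% of the *NEAT1*, 36.7% of the *FDXR* and 40.1% of the *MDM2* UMIs, but 74.3% of *GADD45A*, 81.7% of *SNHG12* and 87.1% of *ATF3*. Between these lay *FAS* (56.4%), *GDF15* (60.2%), *BTG2* (61.6%) and *AEN* (66.0%). The value of *CDKN1A*, 25.8%, is bound by the rule, which gave every cell at least 6 UMIs. The share also varies with the number of UMIs of a gene. *ATF3* is a stress-induced transcription factor that works downstream of both p53 and ATF4. At least 3 *ATF3* UMIs were found in 47 of 633 CDKN1A-high cells (7.42%, 5.51 to 9.75), in 8 of 1888 cells with 1 to 5 *CDKN1A* UMIs (0.424%) and in 4 of 1806 CDKN1A-zero cells (0.221%). This split was made after these values were seen, and its genes are described without a test. By the same unthinned count such cells were 2 of 263 CDKN1A-high cells in S (0.760%, 0.0922 to 2.72), 0 of 177 in RVC and 1 of 21 in RVT (4.76%, 0.120 to 23.8). These libraries were shallower than RV, 14 of the 177 RVC cells had at least 1 *ATF3* UMI, and no order is read from these shares.

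The 47 ATF3-rich cells had a p53 list sum of 11940 CPM, against 3977 in the other 586 CDKN1A-high cells and 1802 in CDKN1A-zero cells. Their cell cycle sums were above those of both other groups. The G2/M sum was 4015 and the G1/S sum 1846 CPM, against 1265 and 590 in the other CDKN1A-high cells and 2932 and 1489 in CDKN1A-zero cells. They had a median of 19975 UMIs, 4063 genes and 23 *CDKN1A* UMIs, against 15728, 2831 and 11. Ribosomal protein genes took 34.7% of their UMIs against 46.9%, and mitochondrial genes 1.77% against 3.14%. Doublet scoring removed 2 of the 47 at the rate used as an alternative, and 2 shared their barcode with another library.

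*GADD45A* was at 2385 CPM in the ATF3-rich cells, at 151 in the other CDKN1A-high cells and at 86.1 in CDKN1A-zero cells. *AEN* was at 411, 35.6 and 14.4, *BTG2* at 160.4, 21.7 and 1.70, and *DDB2* at 616, 135 and 37.4. The snoRNA host gene *SNHG12* was at 843, 69.3 and 18.3. Some genes of NF-kB and immediate-early signalling were high in these cells and low in both other groups. *BIRC3*, an inhibitor of apoptosis, was at 157, 12.7 and 9.41, *EGR1* at 183, 14.9 and 16.7, *JUN* at 115, 12.6 and 23.8 and *CXCL8*, which encodes interleukin 8, at 270.3, 38.1 and 52.4. The replication-dependent histone gene *H4C3* was at 12847 against 1112 and 3513. *NEAT1* showed the reverse, with 212 CPM against 1993 and 317.

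Without the ATF3-rich cells of both groups the ratios of *MDM2*, *FDXR* and *GDF15* were 7.71, 5.97 and 5.63, all far above 1.5-fold. The ratio of *BTG2* became 12.7, of *SNHG12* 3.82, of *AEN* 2.48 and of *GADD45A* 1.79. For these ratios the 4 CDKN1A-zero cells were left out too, and against all 1806 CDKN1A-zero cells *GADD45A* was at 1.76. The ratio of *ATF3* (1.53, or 1.40 against all CDKN1A-zero cells) had to be small, since the cells were removed by their *ATF3* UMIs. Of all 5699 genes counted without the ATF3-rich cells 229 (4.02%) were higher and 1042 (18.3%) lower, with a median log2 ratio of -0.21. Of the p53 list 23 of 32 members were higher, with a median of 1.01, and *PMAIP1*, at a ratio of 0.61, was lower. The cell cycle lists were further down, at -1.34 for G1/S and -1.21 for G2/M. In cells with 20 or more *CDKN1A* UMIs, where both lists were higher than at 12 to 19, *ATF3* was at 128 CPM against 42.9. The part of these cells in that difference was not tested.

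**Figure D5:**
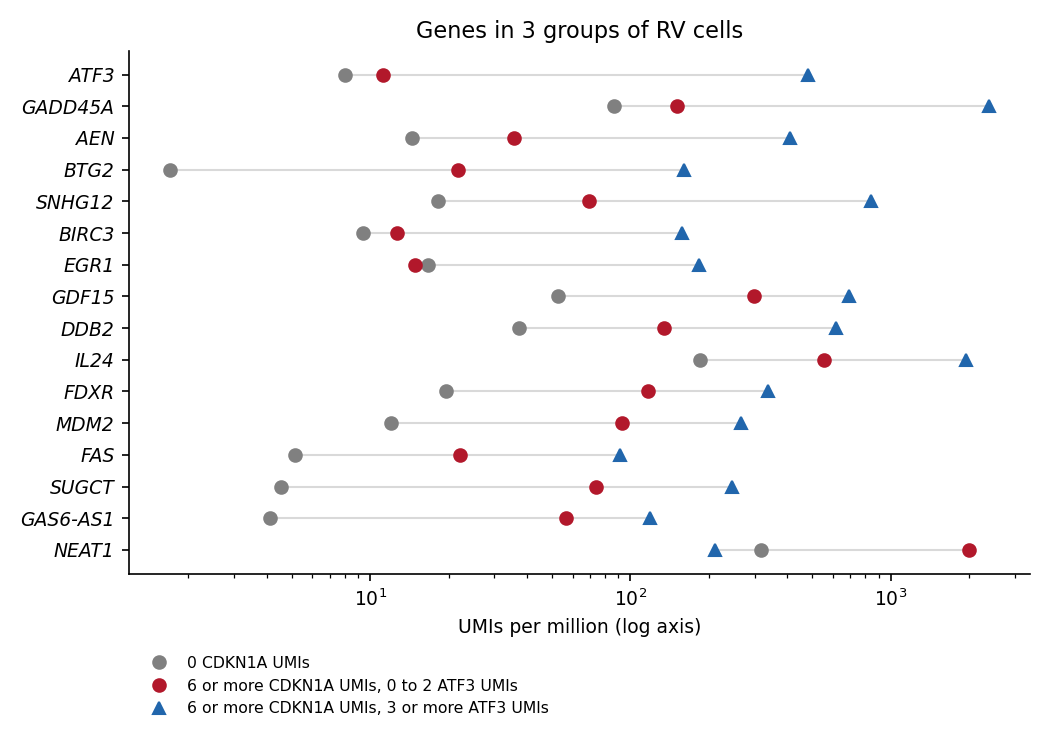
CPM (log axis) of 16 genes in RV cells with 0 *CDKN1A* UMIs (grey, 1806 cells), CDKN1A-high cells with fewer than 3 *ATF3* UMIs (red, 586) and CDKN1A-high cells with at least 3 (blue triangles, 47). *MDM2*, *FDXR* and *GDF15* are raised in both, *GADD45A*, *BIRC3* and *EGR1* mainly in the triangles, and *NEAT1* is at 212 there and at 1993 in the red cells.

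Inflammatory genes were higher in sum, and most members were within 1.5-fold. Of 35 genes 17 passed, 5 were at least 1.5-fold higher and 0 lower (5.02% and 12.4% of all genes), and the sum was 1349 against 788 CPM, a log2 ratio of 0.77. Most of this came from *IL24*, a cytokine of the IL-10 family, at 686 against 186, a ratio of 3.69 (3.55 to 3.84). *IL1B*, which encodes interleukin 1 beta, was at 48.0 against 30.6, a ratio of 1.57. The chemokine genes summed to 141 against 153, a ratio of 0.92, with *CXCL8* at 1.14 and *CXCL1* at 0.73. Effectors and feedback genes of NF-kB summed to a ratio of 1.06. *BIRC3* (2.79), *RELB* (1.84) and *NFKB2* (1.74) were higher among them, and without the ATF3-rich cells these were at 1.35, 1.26 and 1.26, below 1.5-fold. *IL24* stayed at 3.01 and *IL1B* at 1.61, *CXCL8* was at 0.73 and *CXCL1* at 0.61, past 1.5-fold lower. The sum of the inflammatory list then had a log2 ratio of 0.50. In cells of low cell cycle UMIs this log2 ratio was 0.48.

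The integrated stress response, in which the factor ATF4 induces amino acid synthesis and transport, was lower in the summed CDKN1A-high cells. Of 16 genes 14 passed, 9 were lower and 1, *ATF3*, was higher (12.4% and 5.02% of all genes), and the sum was 804 against 1339, a log2 ratio of -0.74. In the ATF3-rich cells the sum was 1985 CPM, above that of CDKN1A-zero cells, and in the other CDKN1A-high cells it was 681. These sums are bound in part by the choice of cells, since *ATF3* is in the list. *ATF3* alone was at 481 CPM in the ATF3-rich cells, at 11.2 in the other CDKN1A-high cells and at 8.01 in CDKN1A-zero cells. The sums without *ATF3* were not computed. *PSAT1* and *PHGDH* of serine synthesis had ratios of 0.26 and 0.48, *ASNS*, the asparagine synthetase, 0.36 and *ATF4* itself 0.58. *PYCR1*, which makes proline, was not in the list and had a ratio of 0.37. *DDIT3*, which encodes CHOP, was at 69.5 against 56.9, and at 300.4 in the ATF3-rich cells against 45.6 in the other CDKN1A-high cells.

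Counts for genes downstream of MAPK signalling were small, and of all genes 5.02% were higher and 12.4% lower. Of 12 ERK output genes 9 passed, 0 were higher and 1 was lower, *FOSL1*, at 232 against 404, and the sum ratio was 0.91. With depth weighting *DUSP4*, at 1.29 in the main comparison, was at 1.55. Of 14 AP-1 and immediate-early genes 8 passed, 2 were higher, *EGR1* (1.84) and *JUND* (1.69), and 1 was lower, again *FOSL1*, with a sum ratio of 0.76. Without the ATF3-rich cells *EGR1* was at 0.90 and *JUND* at 1.67. *FOSL1* was then at 0.44, *IER2* at 0.52, *JUN* at 0.53 and *JUNB* at 0.665, each past 1.5-fold lower. The AP-1 and immediate-early list summed to 445 CPM in CDKN1A-high cells with 0 to 2 *ATF3* UMIs, against 796 in CDKN1A-zero cells. Of 13 TGF-beta and YAP targets 8 passed, 0 were higher and 2 were lower, *ANKRD1* at 0.47 and *CCN1* at 0.52, while *PMEPA1* was at 1.43 (1.68 with depth weighting). They summed to a ratio of 0.81. Of 4 melanocyte and neural crest genes that passed, 0 were past 1.5-fold, with *SOX10* at 1.39, *NGFR* at 1.46, *MITF* at 1.22 and *ERBB3* at 0.92. *MITF* was at 0.77 without the ATF3-rich cells, and *SOX10* was at 1.65 with depth weighting. In cells of low cell cycle UMIs *NGFR* was at 1.86, *MITF* at 0.69 and *ERBB3* at 0.60. Secreted and matrix genes summed to a ratio of 1.02, and interferon genes to 1.09 with *ISG15* at 1.51, which was below 1.5 under most alternatives (lowest 1.32).

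Of 17 genes that the study names for its slow-cycling cells, 11 passed, 7 were higher and 0 lower (5.02% and 12.4% of all genes). They were *MDM2*, *NEAT1*, *H1-2*, *IL1B* and *JUND*, described before, *GSN*, an actin-severing protein, at 82.6 against 39.4, and *HRAS*, with a ratio of 2.03. *KDM5B*, a histone demethylase known from slow-cycling melanoma cells, was at 30.6 against 21.3, a ratio of 1.44. These genes were picked by the study from these samples and are no independent evidence of direction.

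The same rule was applied to cells of other libraries, where it again used *CDKN1A* alone. In S, 263 CDKN1A-high cells were set against 4587 CDKN1A-zero cells, and 264 of 5727 genes (4.61%) were higher and 542 (9.46%) lower. Of 31 p53 targets that passed there 26 were higher and 1 was lower, *PMAIP1*, at 0.64. *MDM2* and *FDXR* had ratios of 12.9 and 8.48 in S. In RVC, with 177 and 6337 cells, 455 of 6020 genes (7.56%) were higher and 686 (11.4%) lower. Of 30 p53 targets that passed there 25 were higher and 0 lower, with *MDM2* at 6.97. *FDXR* was under the minimum in RVC, with 12 and 33 UMIs (ratio 8.53, 4.01 to 16.9). RVT had 21 CDKN1A-high cells, too few for the comparison.

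Of the 292 genes higher in RV, 256 passed the minimum in S and 185 in RVC. In S, where 4.61% of all genes were higher, 137 were also higher, which is 46.9% of the RV genes and 51.9% of the S genes, and 0 were at least 1.5-fold lower there. In RVC, where 7.56% of all genes were higher, 88 of them were higher, 30.1% of the RV and 19.3% of the RVC genes, and 4 were lower, *BTG1*, *C15orf48*, *INHBA* and *STC1*. Of the 719 genes lower in RV, 636 passed in S and 572 in RVC. In S 321 of them were lower, where 9.46% of all genes were, and 0 higher. In RVC 237 were lower, where 11.4% of all genes were, and 4 were higher, *MCUR1*, *NIBAN1*, *NUPR1* and *TPBG*. *GAS6-AS1* had ratios of 21.4 in S and 11.9 in RVC. *SUGCT* was at 27.5 in S and was under the minimum in RVC, with 14 UMIs in CDKN1A-high and 24 in CDKN1A-zero cells (ratio 13.7, 6.55 to 27.5). *ACTA2* was at 15.9 in S and at 2.95 in RVC, next to *FAS* at 6.55 and 2.26. *GDF15* had ratios of 5.49 in S and 39.1 in RVC.

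Other ratios differed between the libraries, and these differences were not tested. *SNHG12* had a ratio of 7.77 in RV and of 1.42 in S, and was under the minimum in RVC, with 6 UMIs in CDKN1A-high cells. *BIRC3* had 2.79 in RV, 0.87 in S and 0.96 in RVC. *GADD45A* was at 4.19, 1.86 and 2.83, and *ATF3* at 6.91 in RV and 1.60 in S. Without the ATF3-rich cells the RV ratios were 3.82 for *SNHG12*, 1.35 for *BIRC3* and 1.79 for *GADD45A*. In RVC *ATF3* was under the minimum, with 15 UMIs in CDKN1A-high and 49 in CDKN1A-zero cells (ratio 7.18). *IL24* was higher in RV and S, at 3.69 and 2.21, and in RVC it was under the minimum, with 2 UMIs in CDKN1A-high and 188 in CDKN1A-zero cells (ratio 0.25, 0.030 to 0.91). The cell cycle lists were lower in all 3 libraries, G1/S at log2 ratios of -1.07 in RV, -0.83 in S and -0.82 in RVC, and G2/M at -0.94, -1.01 and -0.96.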

How the data were processed

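Single-cell RNA libraries of 4 A375 cultures, 1 per condition, were made by the authors with the 10x Genomics Chromium v2 kit. The submitters' processing notes name bcl2fastq 2.20.0.422, Cell Ranger (its version is not given in the sources used here) and the genome GRCh38. As deposited, the values are UMI counts, whole numbers for each Ensembl gene in each barcode, not normalized. The RV table lists 4328 barcodes, more than the RV cells that the study's methods count, and the sources used here do not give the filter behind it. Total UMIs after filtering were 55283706 in RV, 63582691 in S, 37311495 in RVC and 28829751 in RVT.

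Barcodes with at least 500 genes and at most 20% mitochondrial UMIs were kept (in RV 0 barcodes were under the first and 1 was over the second limit). UMIs were summed over CDKN1A-high and CDKN1A-zero cells and given as CPM, counts per 1000000 UMIs of the group. Genes were counted as higher or lower from 1.5-fold, at a minimum of 10 CPM in the mean of both groups, with *CDKN1A* left out. Intervals at 95% were exact: Poisson for levels, conditional binomial for ratios and Clopper-Pearson for shares. Cells of 1 library are no replicates, and no p-value was made. Named genes were the 10 largest and 10 smallest ratios at 50 CPM or more, the 4 members of each of 15 lists furthest from 1, and the markers. Other list members named beside them, *MDM4* and the split by *ATF3* were chosen after values were seen. The cells, limits and lists were chosen with earlier results of these data known, and the list of the study's slow-cycling genes comes from these samples.

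Doublets were left in the comparison. As an alternative, 150 barcodes with the highest scrublet scores (0.8% per 1000 barcodes) were removed, among them 34 CDKN1A-high and 40 CDKN1A-zero cells, because the tool's own threshold marked 1 barcode. Other alternatives were depth weighting in 10 bins, equal weight per cell, thinning to 5000 UMIs, other *CDKN1A* limits, cells of low cell cycle UMIs, TMM factors of edgeR 4.0.16, totals without ribosomal and mitochondrial genes, other minimums, 2000 genes per cell and, added after seeing the data, removal of the ATF3-rich cells and of shared barcodes. Gene positions are from GENCODE on GRCh38. Promoter windows are from RefSeq, and 41 of 54 p53 targets, 33 of 43 G1/S, 45 of 54 G2/M and 26 of 35 inflammatory genes were matched by symbol. Some items are not reported here. The code was tested on simulated data. Python 3.11.15, numpy 2.4.6, scipy 1.17.1, pandas 2.3.3, scanpy 1.11.5, matplotlib 3.10.9 and R 4.3.3 were used.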

Additional observations from a re-analysis of the deposited data

Results flagged for a closer look

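For 6 lists the sums in another library lay on the other side of CDKN1A-zero cells than in RV with counting intervals that left out 1 in both libraries, and 8 genes were past 1.5-fold in opposite directions in RV and RVC. In none was the difference between libraries tested, and smaller opposite values are not given here. In RVC the inflammatory list had a log2 ratio of -0.19, where RV had 0.77, and most of the difference of its sum lay in the chemokines (1071 against 1249 CPM), with *CXCL1* at a ratio of 0.42 and *CCL2* at 0.33. The integrated stress response list had 0.17 in RVC and -0.74 in RV. TGF-beta and YAP targets had 0.32 in RVC and -0.30 in RV, and the ERK output list 0.18 against -0.14. *STC1*, a secreted glycoprotein gene, had a log2 ratio of -0.67 in RVC and of 1.29 in RV. In S the neural crest and melanocyte list had -0.23 against 0.22 in RV, and the secretory and matrix list -0.21 against 0.03. In RVC the log2 ratios of *BTG1*, *C15orf48* and *INHBA* were -0.79, -1.25 and -1.41, where RV had 0.63, 0.59 and 0.72. Those of *MCUR1*, *NIBAN1*, *NUPR1* and *TPBG* were 0.62, 0.65, 0.95 and 0.76 in RVC, and -0.77, -0.71, -1.001 and -0.83 in RV. *MCUR1* rests on 15 UMIs in the CDKN1A-high cells of RVC, *BTG1* on 27 and *NUPR1* on 30.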

How the results depend on the processing

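No paired analysis was possible because each condition has 1 library and the replicate numbers pair nothing. The p53, G1/S, G2/M and inflammatory lists kept their direction under all alternatives run. Their log2 values (the median member for p53, the sum for the others) left the counting interval as follows. With at least 4 *CDKN1A* UMIs they were 1.13, -0.97, -0.83 and 0.62, and with at least 10 they were 1.51, -1.17, -1.12 and 0.96. Without the ATF3-rich cells they were 1.01, -1.34, -1.21 and 0.50. With cells chosen after thinning, G1/S, G2/M and inflammatory were -1.18, -1.18 and 0.73, and with totals free of ribosomal and mitochondrial genes -0.95, -0.82 and 0.90. G1/S and G2/M were -1.12 and -0.998 with equal weight per cell, -1.12 and -0.99 without the highest doublet scores and -1.12 and -0.99 at 2000 genes. Depth weighting gave -1.24 for G2/M and 0.85 for inflammatory genes, 0 or 1 *CDKN1A* UMIs gave 0.73 for the latter, and cells of low cell cycle UMIs gave 0.98 for p53 and 0.48 for inflammatory genes.

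The count of 292 higher genes became 174 in cells of low cell cycle UMIs, 467 after thinning and 756 with totals free of ribosomal and mitochondrial genes. A minimum of 50 CPM gave 66 higher and 252 lower genes, and no minimum gave 3338 and 2519. Over 62 named genes and 13 alternatives, 805 values were computed, 592 lay within the counting interval and 213 outside it. Of all these values 17 changed side, 4 of them for genes past 1.5-fold. These were *CDCA3* (0.10) and *EGR1* (-0.048) in cells of low cell cycle UMIs, *EGR1* (-0.16) without the ATF3-rich cells and *CDKN2A* (-0.068) after thinning. *CDCA3* is in the G2/M list, whose UMIs were used to choose the cells of low cell cycle UMIs, so that its value there is bound by that choice. Causes of these changes were not tested. Depth limits what can be read from rare genes, those under 10 CPM, and 1 library per condition leaves the spread between cultures unknown.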
